A study of Capra hircus with 3 samples.

Results

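The genes described here are 9 genes of plasma cells, B cells and antibody transport in the mammary gland of Laoshan dairy goats: PIGR, JCHAIN, MZB1, POU2AF1, CD79A, CD79B, MS4A1, TNFRSF17 and FCGRT. They were chosen by name and function, with earlier results of these data known. They were matched by NCBI gene ID and make up 9 of 13023 protein-coding genes with deposited values. Healthy Laoshan goats, 4 years old and in the third lactation, were sampled by surgery at day 10 (early lactation), day 90 (peak lactation) and day 210 (late lactation) after parturition, with no treatment that differed between the stages. RNA of 5 goats, by the paper's account the same animals at each stage, was pooled into 1 library per stage. The spread between goats and between libraries is therefore unknown, no p-value is given and a ratio between libraries has no replicate check. Samples at day 90 and day 210 thus followed earlier surgery on the gland, and any effect of it was not tested. The values are FPKM, read fragments normalised to transcript length and library size, which can be compared between genes as levels per length. In whole tissue, more cells of a type and more RNA per cell cannot be told apart.

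The lactating gland puts antibody into milk by more than one route. Plasma cells in the stroma around the alveoli make dimeric IgA and pentameric IgM, which are held together by the joining chain that JCHAIN encodes. The polymeric immunoglobulin receptor, encoded by PIGR, binds these J chain-containing polymers at the basal side of the milk-producing epithelium, carries them across the cell and is cleaved at the apical side, so that part of it enters milk as secretory component. IgG, the main antibody of ruminant colostrum, does not use this receptor, and the neonatal Fc receptor, made of the FCGRT chain and B2M, binds and transports IgG. Among the other members, MZB1 is an endoplasmic reticulum cofactor of antibody folding, TNFRSF17 (BCMA) is a survival receptor of plasma cells, POU2AF1 is a B cell transcriptional coactivator, CD79A and CD79B are the signalling chains of the B cell receptor, and MS4A1 (CD20) is a surface protein of B cells that plasma cells lose.

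The libraries are called E (early lactation), P (peak lactation) and L (late lactation), as they are labelled, and sets of 3 values follow the order E, P and L. The study's supplementary values of its peak and late libraries were set against the deposited columns labelled peak and late for 140 annotated lncRNA genes. The ratio of late over peak ran in the opposite direction for 120 of them and in the same direction for 20. Which of the 2 columns belongs to which stage is therefore in doubt. The column labelled early was not checked in this way, so a mix-up that involves it was not tested. If only the labels peak and late were exchanged, every statement below about the library labelled P would apply to day 210. Every statement about the library labelled L would then apply to day 90, with the same values. The median log2 ratio over protein-coding genes above 0 in both libraries was 0.01 for peak over early, -0.03 for late over early and -0.02 for late over peak lactation. The summed FPKM of protein-coding genes differed more, at 478221, 275836 and 421182. Over all loci the sums were closer, at 1014250, 918441 and 928428. The most abundant locus of each library held 29.99%, 46.04% and 29.90% of the FPKM. In each library 12823 to 12999 protein-coding genes were above 0. The milk protein gene LALBA had 70053 FPKM in the library labelled E and 0 in the library labelled L, so a value of 0 is not read as absence. All 9 members were above 0 in all 3 libraries.

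Of the 9 members, 8 had their highest FPKM in the library labelled P, and PIGR had its lowest there. The 7 genes MZB1, POU2AF1, CD79A, CD79B, MS4A1, TNFRSF17 and FCGRT followed the order peak, early, late from highest to lowest. This order was held by 30.3% of the 12764 protein-coding genes above 0 in all 3 libraries. JCHAIN followed the order peak, late, early, held by 13.1% of genes, and PIGR the order late, early, peak, held by 26.4%.

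**Figure D1:**
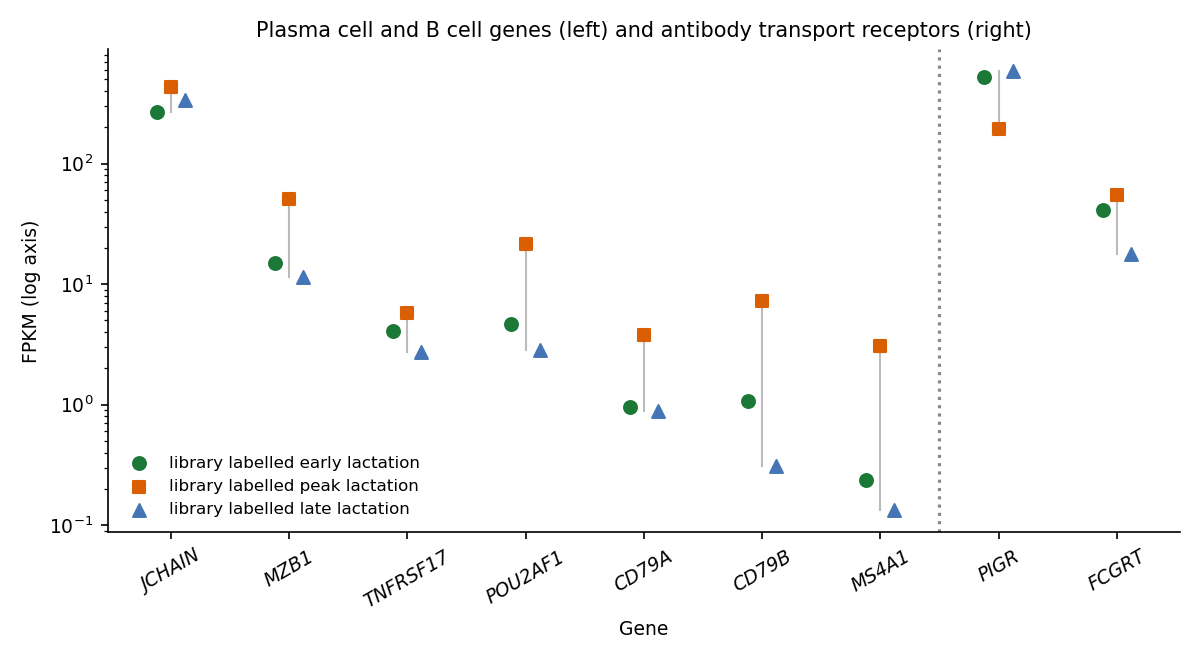
FPKM (vertical log axis) of the 9 genes in the libraries labelled early (E, circles), peak (P, squares) and late (L, triangles), with 1 pooled library per stage, no error bars and a grey line over the range of each gene. The square is the highest mark for 8 genes and the lowest for PIGR, at 195 FPKM.

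PIGR and JCHAIN were the most abundant members by far. PIGR, on scaffold NW_005100837.1 from 3020687 to 3058096 (gene ID 102176714), had 521 FPKM in the library labelled E, 195 FPKM in that labelled P and 585 FPKM in that labelled L. These levels lay at percentiles of 99.5, 99.2 and 99.6 of protein-coding genes. The receptor was thus 2.67-fold lower in the library labelled P than in that labelled E and 2.99-fold lower than in that labelled L, while the early and late libraries differed by 1.12-fold.

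JCHAIN, on scaffold NW_005100697.1 from 865311 to 875284 (gene ID 102172880), had 266 FPKM in the library labelled E, 429 FPKM in that labelled P and 337 FPKM in that labelled L. Its range over the 3 libraries was the narrowest of the 9 members, 1.61-fold from early to peak lactation. JCHAIN and PIGR changed places in the order of levels: the ratio of JCHAIN to PIGR was 0.511 in the library labelled E, 2.19 in that labelled P and 0.576 in that labelled L. The amount of J chain mRNA per receptor mRNA was thus 4.30-fold higher in the peak than in the early library.

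The genes of antibody-secreting cells differed in the size of their ratios. MZB1, on scaffold NW_005100721.1 from 8214189 to 8216306 (gene ID 102169583), had 15.0, 50.8 and 11.4 FPKM in the libraries labelled E, P and L. It was 3.39-fold higher in the peak than in the early library and 4.44-fold higher than in the late library. TNFRSF17, on scaffold NW_005100934.1 from 8220186 to 8223478 (gene ID 102170014), had 4.06, 5.79 and 2.71 FPKM, a ratio of 1.42-fold for peak over early and of 2.13-fold for peak over late lactation. JCHAIN, TNFRSF17 and MZB1 are all expressed by plasma cells, and between peak and early lactation their log2 ratios were 0.69, 0.51 and 1.76. The ratio of JCHAIN to MZB1 was 17.8, 8.44 and 29.4 in the libraries labelled E, P and L.

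The other B lineage members are genes that B cells carry before they become plasma cells. POU2AF1, on scaffold NW_005100821.1 from 4749671 to 4775316 (gene ID 102169494), had 4.71 FPKM in the library labelled E, 21.6 FPKM in that labelled P and 2.87 FPKM in that labelled L. The peak value was 4.58-fold the early value and 7.53-fold the late value. POU2AF1 is active in both B cells and plasma cells.

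CD79A, on scaffold NW_005100870.1 from 567829 to 571692 (gene ID 102174687), had 0.964, 3.80 and 0.879 FPKM in the libraries labelled E, P and L. Its partner CD79B, on scaffold NW_005100886.1 from 23843633 to 23847043 (gene ID 102177093), had 1.08, 7.22 and 0.308 FPKM. Both chains were highest in the library labelled P, 3.95-fold over early lactation for CD79A and 6.68-fold for CD79B. They parted in the library labelled L, where CD79A was close to its early value at 1.10-fold lower and CD79B was 3.51-fold lower than in early lactation.

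MS4A1, on scaffold NW_005100834.1 from 704032 to 719543 (gene ID 102172175), had 0.239, 3.07 and 0.132 FPKM, the lowest level of all members in each library. Its ratio of peak over early lactation was 12.8-fold, and that of peak over late lactation 23.1-fold, beside 23.5-fold for CD79B. Both of the latter rest on low values in the library labelled L, and with 1 added to both FPKM the late over peak ratio (log2) went from -4.53 to -1.84 for MS4A1 and from -4.55 to -2.65 for CD79B. The early and late values were low enough that few reads may stand behind them. Among 2378 loci of any kind with values above 0 and under 0.6 FPKM in both of these libraries, ratios of late over early lactation fell on repeated steps, of which 1.109 and 0.554 were the most frequent, and the ratio of MS4A1 was 0.554. Ratios of small whole numbers of reads fall on such steps, and the folds of MS4A1, and of CD79B against late lactation, are less certain than those of the abundant members.

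The spread of levels among the B lineage members differed between the libraries. From MS4A1 to JCHAIN, the range of the 7 B lineage members was 140-fold in the library labelled P, 1112-fold in that labelled E and 2541-fold in that labelled L. The ratio of TNFRSF17, a plasma cell gene, to MS4A1, a B cell gene, was 17.0, 1.89 and 20.5 in the libraries labelled E, P and L. In the libraries labelled E and L, the range and this ratio both rest on the low values of MS4A1, 0.239 and 0.132 FPKM. Few reads may stand behind these values.

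FCGRT, on scaffold NW_005100871.1 from 4202789 to 4208049 (gene ID 102170724), had 41.4 FPKM in the library labelled E, 54.7 FPKM in that labelled P and 17.7 FPKM in that labelled L. It was the third most abundant member in every library. The IgG receptor did not follow PIGR: it was 1.32-fold higher in the peak than in the early library and 2.34-fold lower in the late than in the early library. B2M, which forms the receptor with FCGRT and also pairs with other chains on most cells, had 142, 103 and 148 FPKM. The ratio of FCGRT to B2M was 0.292, 0.530 and 0.119 in the libraries labelled E, P and L.

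Between the libraries labelled E and P, 6 of the 9 members were at least 2-fold apart, against 17.7% of protein-coding genes. By direction, 5 of the 9 members were higher by 2-fold or more in the library labelled P than in that labelled E, against 10.9% of 13020 protein-coding genes. These were MZB1, POU2AF1, CD79A, CD79B and MS4A1. Only PIGR among the members was at least 2-fold higher in early lactation, against 6.8% of genes. Between late and early lactation, where 8.71% of genes were at least 2-fold apart, 2 members, CD79B and FCGRT, were at least 2-fold higher in early lactation, against 6.74% of genes, and 0 members in late lactation, against 1.97%. Between late and peak lactation, where 25.9% of genes were at least 2-fold apart, 7 members were at least 2-fold higher in peak lactation, against 17.4% of genes, and PIGR in late lactation, against 8.56%. Each library enters more than one of these comparisons, which are therefore not independent. Just inside the 2-fold limit were TNFRSF17 at 2.13-fold for peak over late and FCGRT at 2.34-fold for early over late lactation, and just outside it was MS4A1 at 1.81-fold for early over late lactation. At a fold of at least 4, POU2AF1, CD79B and MS4A1 were higher in peak than in early lactation, against 3.56% of genes that far apart in either direction. Between late and early lactation 0 members were 4-fold apart, against 3.28% of genes, and between late and peak lactation 5 were, against 8.66%. The 5 were MZB1, POU2AF1, CD79A, CD79B and MS4A1, all higher in peak lactation.

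The median log2 ratio of the 7 B lineage members, all but PIGR and FCGRT, was 1.98 for peak over early, -0.58 for late over early and -2.15 for late over peak lactation. The medians over all protein-coding genes lay between -0.03 and 0.01.

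**Figure D2:**
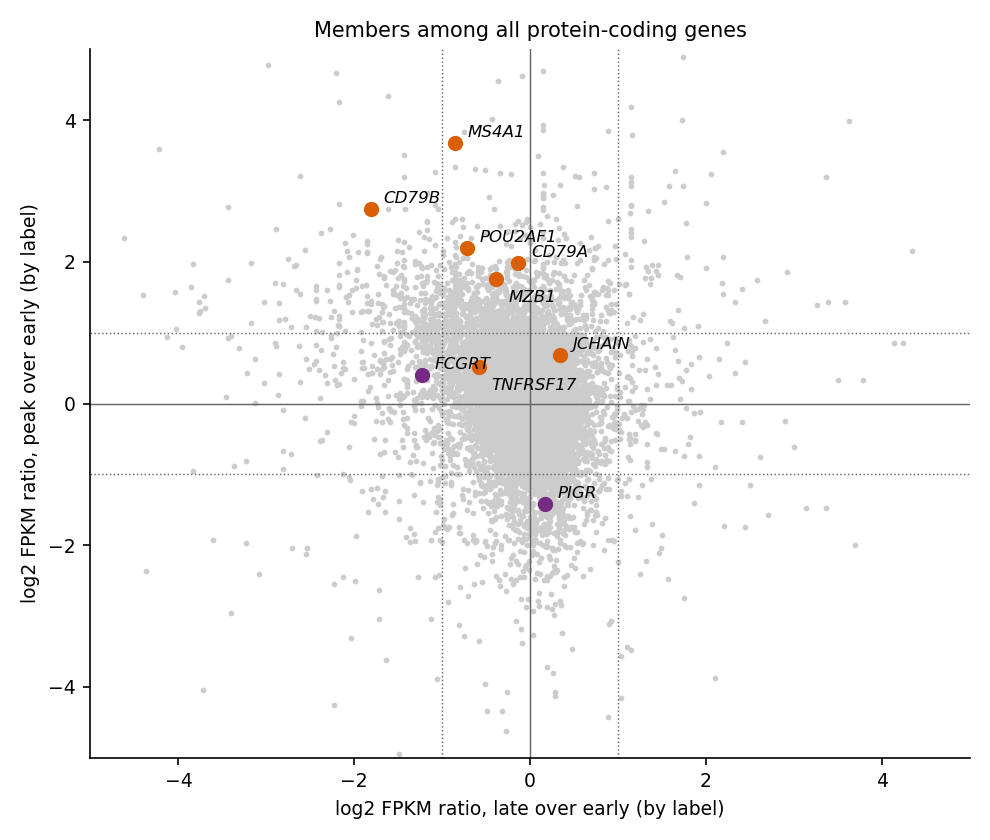
Log2 FPKM ratio of late over early lactation (horizontal) against peak over early lactation (vertical), by label, for protein-coding genes above 0 in all libraries (grey, axes limited) and for the B lineage members (orange) and the receptors PIGR and FCGRT (purple). Dotted lines mark a 2-fold difference, and MS4A1 lies highest at 3.68 while PIGR lies below the lower dotted line at -1.42.

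Other genes of the same cells and routes were taken from lists by function. Beside the counts of every list below, 10.9% of protein-coding genes were at least 2-fold higher and 6.8% lower in peak than in early lactation. Of 22 listed genes of B cell identity and receptor signalling, 19 had values, and 14 were higher by 2-fold or more in the library labelled P than in that labelled E, with 0 higher in early lactation and a median log2 ratio of 1.45. Between peak and late lactation 15 of the 19 were at least 2-fold higher in peak lactation, against 17.4% of protein-coding genes. TNFRSF13B (TACI), a receptor of the same ligands as TNFRSF17, had 1.15, 6.48 and 1.15 FPKM in the libraries labelled E, P and L. BLNK, an adaptor that links the B cell receptor to its downstream enzymes, had 3.46, 10.8 and 2.07 FPKM. EBF1, a transcription factor of early B cells that stromal cells also express, had 5.50, 7.45 and 5.16 FPKM and lay within 2-fold in every comparison.

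The list of plasma cell differentiation and secretion was divided. Of 15 measured genes, 5 were higher by 2-fold or more in the library labelled P than in that labelled E and 2 were lower, with a median log2 ratio of 0.44. CD27, a receptor of memory B cells, plasma cells and T cells, had 4.05, 15.5 and 2.18 FPKM in the libraries labelled E, P and L. EAF2, an elongation factor partner, had 3.73, 13.3 and 4.69 FPKM, and SDC1 (CD138), a proteoglycan of plasma cells and epithelium, 6.84, 16 and 3.65 FPKM. SSR4, a subunit at the translocon used by any secretory cell, ran with PIGR instead, with 776, 313 and 733 FPKM. FKBP11, a folding enzyme of the endoplasmic reticulum, had 100.2, 59.3 and 115 FPKM.

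Genes that attract or sustain plasma cells were also divided. Of 14 measured genes, 9 were at least 2-fold higher in peak than in early lactation and 2 were lower, with a median log2 ratio of 1.26. CCL28, the epithelial chemokine that draws IgA plasma cells into the gland, had 55.8, 18.5 and 70.0 FPKM in the libraries labelled E, P and L, in the same order as PIGR. TNFSF13 (APRIL), a ligand of TNFRSF17, had 9.49, 4.39 and 13.7 FPKM and followed that order too. TNFSF13B (BAFF), on the same list and named after its values were seen, ran the other way with 2.26, 6.16 and 0.468 FPKM. CXCL13, a chemokine of B cell follicles, had 2.15, 10.8 and 0.0874 FPKM, and CXCR4, the receptor by which plasma cells follow CXCL12, had 7.19, 19.6 and 3.25 FPKM. CXCL12 itself had 25.5, 48.5 and 30.1 FPKM.

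On the epithelial side, all 16 listed genes of the transcytosis route had values. Their median log2 ratio was -0.37 for peak over early and 0.12 for late over early lactation. At least 2-fold lower in the library labelled P than in that labelled E were 2 of them, against 6.8% of protein-coding genes. RAB25, a GTPase of the apical recycling endosome through which PIGR passes, had 44.3, 16 and 38.4 FPKM in the libraries labelled E, P and L. The other was AP1M2, an epithelial clathrin adaptor subunit, with 23.2, 11.1 and 22.1 FPKM, which was named after its values were seen. RAB11A, a GTPase of the same recycling compartment, had 46.7, 31.2 and 56.4 FPKM, and VPS35, a retromer subunit, had 71.8, 36.0 and 77.7 FPKM.

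The listed factors that act upstream of PIGR transcription were divided. Of 13 genes, 2 were higher by 2-fold or more in the library labelled P than in that labelled E and 0 were lower. Over all protein-coding genes 10.9% were higher and 6.8% lower by that much, so these counts are near those shares. IRF1, a transcription factor that binds the PIGR gene in other mammals, had 14.2, 39.1 and 6.55 FPKM in the libraries labelled E, P and L, so that it was highest where PIGR was lowest. The other was RELB, a subunit of NF-kappaB, with 3.80, 8.15 and 2.54 FPKM, named after its values were seen. The order of PIGR, highest in late and lowest in peak lactation, was held by IFNGR2, TLR2 and TLR4 of the 13. It was held by 26.4% of all protein-coding genes above 0 in all 3 libraries. IFNGR2, a chain of the interferon gamma receptor, had 99.3, 81.6 and 116 FPKM, while its partner IFNGR1 had 28.8, 44.8 and 19.5 FPKM. TLR4, the receptor of bacterial lipopolysaccharide, had 13.2, 9.69 and 15.7 FPKM. Among 4 measured genes of other Fc and immunoglobulin receptors, LGALS3, a lectin that can bind IgE, had 17.6, 49.6 and 10.1 FPKM. FCER1G, the shared signalling chain of several Fc receptors, had 2.86, 2.83 and 1.03 FPKM.

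Markers of other immune cells had the same direction as most B lineage members. All 5 measured pan-leukocyte markers, PTPRC, CD53, CORO1A, LAPTM5 and RAC2, had their highest value in the library labelled P, where their FPKM summed to 166, against 81.5 in early and 40.1 in late lactation. PTPRC (CD45) had 17.6, 39.9 and 8.08 FPKM. Of 9 measured T cell markers, 7 were at least 2-fold higher in peak than in early lactation, against 10.9% of protein-coding genes. The summed FPKM of the T cell markers was 30.4, 75.3 and 13.0 in the libraries labelled E, P and L. CD3E was listed at 0 in the libraries labelled E and P, while its partner CD3G had 4.91, 13.8 and 1.76 FPKM. Of 9 measured macrophage markers, 0 were 2-fold higher in peak than in early lactation, and their median log2 ratio was 0.62. Of 7 measured lymph node markers, CXCL13 among them, 5 were at least 2-fold higher in peak than in early lactation, with summed FPKM of 16.9, 50.1 and 7.69. CCL21, a chemokine of lymph node stroma, had 5.97, 19.5 and 2.80 FPKM. The part of these cells, or of a piece of lymph node in the tissue, in the values of the B lineage members was not tested.

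Set against the pan-leukocyte markers, the B lineage members were divided. Their geometric mean divided by that of the 5 pan-leukocyte genes was 0.305, 0.568 and 0.408 in the libraries labelled E, P and L. MS4A1 kept a 6.24-fold and CD79B a 3.25-fold higher ratio in peak than in early lactation on this scale. JCHAIN and TNFRSF17 turned to the opposite direction, 1.28-fold and 1.44-fold lower in peak than in early lactation. In the library labelled L JCHAIN per leukocyte marker was 50.7, against 19.9 in early and 15.6 in peak lactation, so that it was 2.56-fold higher than in early lactation. Against the 8 T cell markers above 0 in all libraries, the geometric mean of the B lineage members was 1.20, 1.90 and 2.22.

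PIGR was set beside epithelial genes in the same way. The geometric means of the 8 luminal epithelial markers were 95.3, 99.1 and 91.0 FPKM in the libraries labelled E, P and L, so that PIGR relative to them was 2.77-fold lower in peak than in early lactation, close to its ratio without this scale. Within this list, KRT8 had 126, 196 and 154 FPKM, while ELF5, a transcription factor of milk-producing luminal cells, had 879, 244 and 875 FPKM. Of 6 measured milk secretory genes, all 6 were at least 2-fold lower in the library labelled P than in that labelled E. BTN1A1, a protein of the milk fat globule membrane, had 2940, 1241 and 3788 FPKM. PIGR per BTN1A1 was 0.177, 0.157 and 0.154 in the libraries labelled E, P and L, and PIGR per ELF5 was 0.593, 0.802 and 0.668. Both partners, ELF5 and BTN1A1, were chosen for these ratios after their values were seen.

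FCGRT is expressed by epithelium, endothelium and macrophages. Against the geometric mean of 9 macrophage markers, FCGRT was 3.13, 2.99 and 2.47 in the libraries labelled E, P and L, a range of 1.27-fold. Against the luminal epithelial markers it was 0.434, 0.552 and 0.194. C1QA, a complement gene of macrophages, had 58.5, 107 and 28.4 FPKM, and the endothelial marker PECAM1 had 47.4, 46.9 and 38.1 FPKM. Of 5 endothelial markers 0 were 2-fold apart between early and peak lactation, with a median log2 ratio of -0.20. For late over early lactation their median was 0.35, with 4 of the 5 higher in late lactation and PECAM1 lower. Among 6 basal and myoepithelial markers 1 was at least 2-fold lower in peak than in early lactation and 0 were higher. Over all protein-coding genes 6.8% were lower and 10.9% higher by that much. Among 6 fibroblast markers 2 were lower and 1 was higher, and among 3 measured adipocyte markers 1 was lower. Which cells the FCGRT mRNA came from was not tested.

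**Figure D3:**
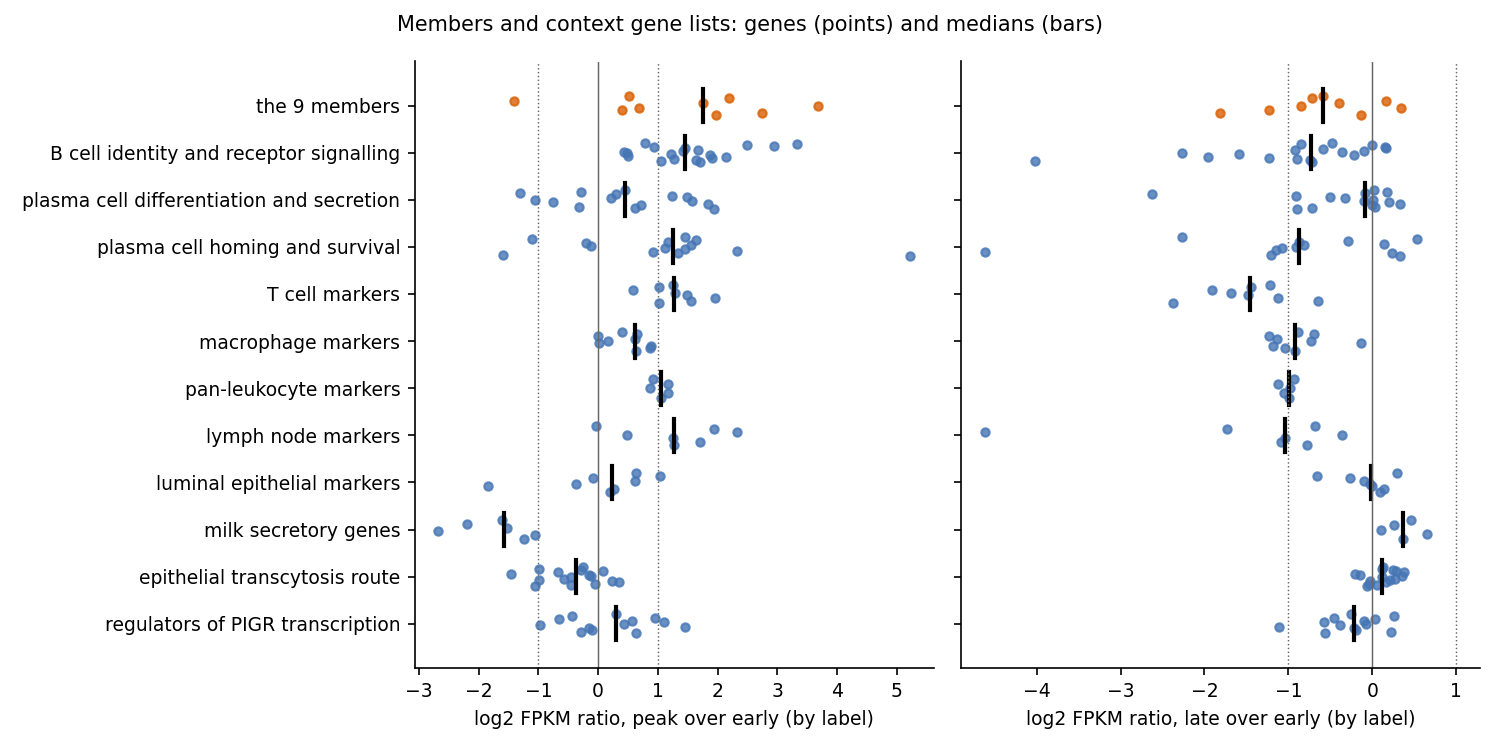
Log2 FPKM ratio (horizontal) of peak over early lactation (left) and late over early lactation (right), by label, for the 9 members (orange) and the context lists (blue), where each point is a gene above 0 in both libraries and each black bar a median. The B cell list has its median at 1.45 on the left and the milk secretory list at -1.57, the side on which PIGR lies.

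The genes with the most similar pattern were sought among 11087 protein-coding genes with at least 1 FPKM in all 3 libraries, by the distance between log2 ratios of peak over early and late over early lactation. The genes nearest to PIGR were IDH1, HID1 and ERO1A, at distances of 0.02, 0.02 and 0.04. IDH1, a cytosolic isocitrate dehydrogenase, had 140, 51.8 and 157 FPKM in the libraries labelled E, P and L. Near JCHAIN lay PER2 and ZNF346, at 0.01 and 0.02, and nearest to FCGRT were LOC102172711, LAMP3 and CLEC7A, at 0.05, 0.08 and 0.13. CLEC7A, a receptor of myeloid cells, had 4.52, 6.53 and 1.88 FPKM. With 3 libraries such likeness is easily met: 104 genes lay within 0.25 of PIGR, 247 within 0.25 of JCHAIN and 28 within 0.25 of FCGRT.

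The 9 members lay on 9 different scaffolds, each with a single locus, so that no members were neighbours. FCMR, the IgM receptor of lymphocytes, ended 8.57 kb before the start of the PIGR locus and had 0.897, 2.87 and 0.596 FPKM, highest where PIGR was lowest. The log2 ratio of peak over early lactation was 1.68 for FCMR and -1.42 for PIGR. JCHAIN lay 340 kb beyond CSN3, the kappa-casein gene of the casein cluster, which had 25445 FPKM in the library labelled E, 3989 FPKM in that labelled P and 27391 FPKM in that labelled L. ENAM, the nearest protein-coding gene to JCHAIN at 4.12 kb, had 1.47, 1.83 and 1.43 FPKM.

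RCN3 began 0.415 kb after the FCGRT locus ended and had 8.88, 18.2 and 7.04 FPKM, a ratio of 2-fold or more for peak over early lactation that FCGRT did not reach. RPL13A, on its other side at 17.9 kb, had 701, 360 and 573 FPKM. CD37, a tetraspanin of B cells on the list above, lay in the same 150 kb window, with 0.901, 3.29 and 0.299 FPKM. PAIP2, 1.03 kb before MZB1, had 54.6, 44.4 and 63.8 FPKM, so that MZB1 did not share the direction of its neighbour. Whether reads of close neighbours were shared was not tested.

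**Figure D4:**
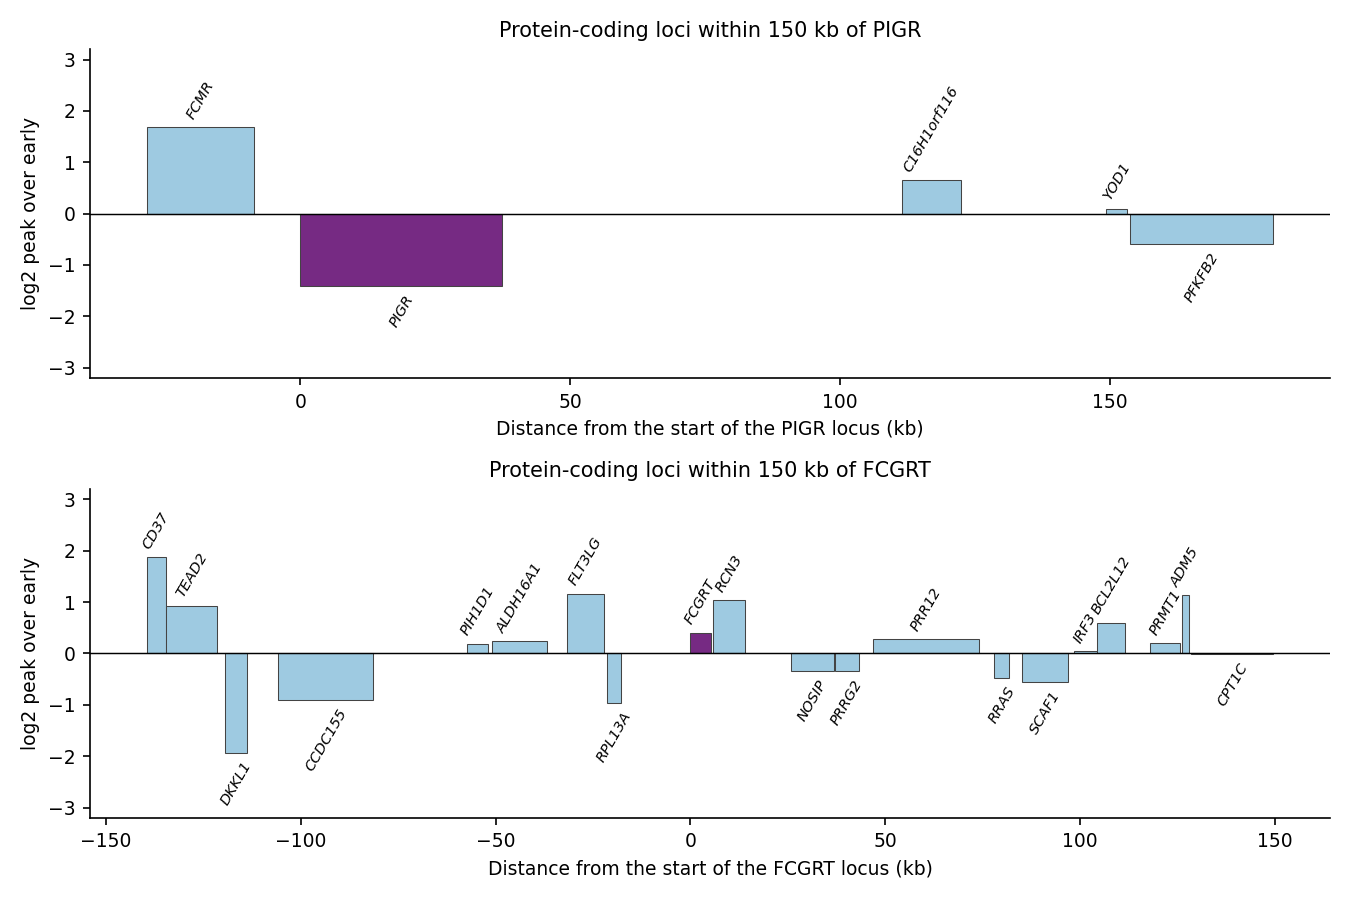
Log2 FPKM ratio of peak over early lactation by label (vertical) for protein-coding loci within 150 kb of PIGR (top) and FCGRT (bottom), drawn to scale along the distance in kb from the start of the member (horizontal), with the member in purple and each bar as wide as its locus. FCMR stands at 1.68 and PIGR at -1.42.

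The size of the ratios depended on the scale used. Setting the summed FPKM of protein-coding genes equal in the 3 libraries raised every log2 ratio of peak over early lactation by 0.79, so that the median of genes with at least 1 FPKM in both was 0.77. On that scale PIGR had a log2 ratio of -0.62 for peak over early lactation and 0.97 for late over peak lactation, so that neither reached 2-fold. Then 8 members were at least 2-fold higher in peak than in early lactation, but so were 37.1% of protein-coding genes, while 1.99% were at least 2-fold lower. Of the listed genes, 0 on the transcytosis route, 0 of plasma cell secretion and 0 of homing and survival remained at least 2-fold lower in peak than in early lactation on that scale, and 2 of the 6 milk secretory genes did. Of the regulators of PIGR transcription 7 were then higher, and of the macrophage markers 6. The rank of the members by ratio was not altered by this step. The sum over all loci differed less between the libraries than the protein-coding sum did. The rescaled values therefore depend on how much FPKM fell on other loci, and the cause of that share was not tested.

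**Figure D5:**
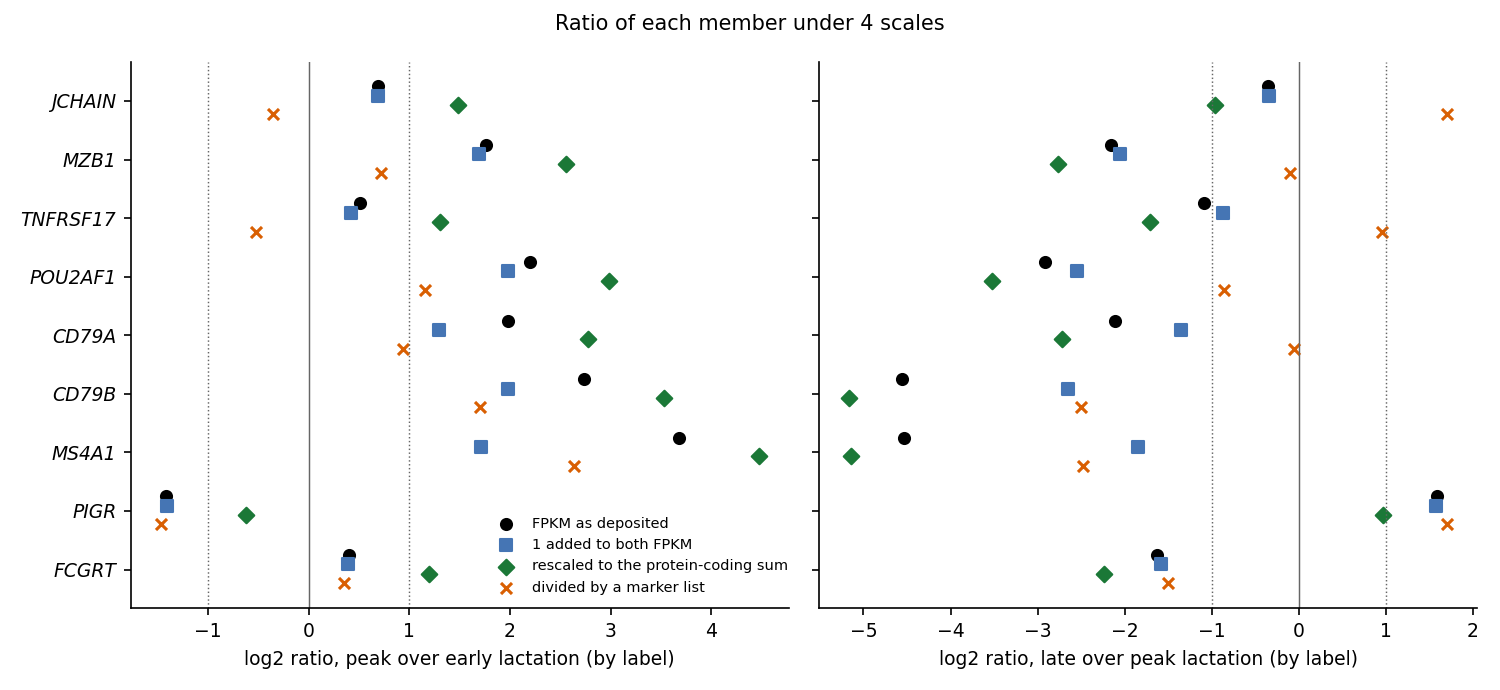
Log2 ratio (horizontal) of peak over early (left) and late over peak lactation (right), by label, for each member under 4 scales: FPKM as deposited, 1 added to both FPKM, FPKM rescaled to the protein-coding sum, and FPKM divided by the geometric mean of a marker list (luminal epithelial for PIGR and FCGRT, pan-leukocyte for the others). Dotted lines mark a 2-fold difference, and JCHAIN and TNFRSF17 change sides of 0 when divided by the pan-leukocyte list.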

How the data were processed

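Mammary gland RNA of 5 goats was pooled per stage and 3 stranded libraries were sequenced. The authors trimmed the reads with Trimmomatic, mapped them with TopHat2 2.0.9 and Bowtie2, assembled them with Cufflinks 2.1.1 and Cuffmerge, and deposited FPKM from Cuffdiff for 50041 loci, per the labels in 1 column per library. Columns were assigned to stages by the labels. The scaffolds belong to an assembly not named in the deposited values, and no genome was used. Of the deposited values, 40.3% to 46.1% per column had 7 digits, and 95.7% to 99.3% of these ended in 5, as means of 2 values would. Read numbers per locus are unknown, so no confidence interval is given.

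Loci were summed by NCBI gene ID and named through a RefSeq gene table (assembly ARS1.2). Ratios of FPKM were taken with 0 set to 0.001, and a gene was called at a ratio of at least 2. Distances between patterns were Euclidean distances between pairs of log2 ratios. No test was run, with 1 library per stage. The members and lists were chosen with earlier results of these data known. All 9 members are named, and from each other list the most abundant genes and those with the largest ratios among genes with at least 1 FPKM, for each of PIGR, JCHAIN and FCGRT the 3 most alike genes, and others where stated; an item that this rule gave is not reported here. CD37 and FCMR were named for their position. Immunoglobulin chain genes were to be included, but of 162 antigen receptor segments listed in that RefSeq release, 0 matched a deposited locus. Alternatives were other folds, pseudocounts, a filter on low FPKM, the top locus per gene, centring, rescaling and exchanged columns. The comparators of ratios within a library were added after the values were seen. Fold calling was tested on simulated data with planted changes beyond the limit, which checks the calculation and not the reliability of the calls. Python 3.11.15, numpy 2.4.6, pandas 2.3.3 and matplotlib 3.10.9 were used. Sequences were not used here.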

Additional observations from a re-analysis of the deposited data

How the results depend on the processing

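No paired analysis was possible because a stage has a single pooled library. For the same reason no library was left out and no spread is known, so a log2 ratio was taken as moved where it differed at 2 decimals, and a count where it differed by more than 1.5 times. Keeping the most abundant locus of each gene left every value of the members as it was, since each has a single locus.

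The number of members at least 2-fold apart was 6 for peak over early, 2 for late over early and 8 for late over peak lactation. It was 3, 0 and 5 at a fold of at least 4, and 4 for late over early lactation at a fold of at least 1.5, against 17.8% of protein-coding genes. Adding 1 to both FPKM left 1 for late over early lactation, against 2.13% of genes. A minimum of 1 FPKM in both libraries, which left 6 members with values, gave 1 for late over early, against 2.88% of genes, and 5 for late over peak lactation, against 18% of genes. With the columns of peak and late lactation swapped it was 2 for peak over early and 6 for late over early lactation.

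The median log2 ratio of the B lineage members, 1.98 for peak over early, -0.58 for late over early and -2.15 for late over peak lactation, was 1.88, -0.55 and -2.14 with 0.1 added to both FPKM and 1.70, -0.36 and -1.84 with 1 added. It was 2.01, -0.57 and -2.19 after centring on the median of protein-coding genes, 1.76, -0.49 and -1.62 for genes of 1 FPKM or more in both libraries, and 2.77, -0.40 and -2.76 after rescaling to the protein-coding sum. Divided by the pan-leukocyte markers, a scale added after the values were seen, it was 0.94 for peak over early and -0.10 for late over peak, and for late over early lactation it turned to 0.43.

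On the pan-leukocyte scale the log2 ratio of late over early lactation turned positive for CD79A (0.88), MS4A1 (0.16), MZB1 (0.62), POU2AF1 (0.30) and TNFRSF17 (0.43). The ratio of peak over early lactation turned negative for JCHAIN (-0.35) and TNFRSF17 (-0.53), and that of late over peak lactation positive for JCHAIN (1.71) and TNFRSF17 (0.96). After rescaling to the protein-coding sum, CD79A turned to 0.050 for late over early lactation. Of the other log2 ratios of single members under an alternative, 112 differed at 2 decimals without a change of direction and 59 did not. Of the counts over the other gene lists under an alternative, 54 moved by more than 1.5 times and 522 did not. The 522 include counts that were 0 and stayed 0, among them every count of the endothelial markers. They also include the setting of the most abundant locus, which could change few counts because nearly all listed genes have a single locus. The tally is therefore not a measure of robustness. Beyond what an alternative does by construction, the cause was not tested.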
